A study of Mus musculus with 40 samples.

Results

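In colon tumors of mice, sorted tumor monocytes and sorted tumor stromal cells differed in the levels of many transcripts for secreted factors, their receptors and their antagonists. Inflammatory cytokines and chemokines such as Il1b, Il1a, Osm, Ccl9 and Cxcl3 were higher in monocytes, and guidance factors and growth factor binding proteins such as Slit3, Ltbp4 and Igfbp7 were higher in stromal cells. Sorted tumor neutrophils had a higher mean than monocytes for Il1b, Osm and Cxcl3, but not for Il1a and Ccl9. The groups compared were 4 libraries of tumor monocytes and 4 libraries of tumor stromal cells, which are 8 of the 40 libraries of the series and were taken by their group label. Within them the genes followed were 436 members of 3 lists, with 209 secreted factors, 187 receptors and 40 secreted antagonists or binding proteins.

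All 8 libraries came from tumor-bearing mice labelled Cdx2CreERT2 - Apc fl/fl, in which tamoxifen activates a Cre recombinase expressed under the Cdx2 promoter in colon epithelium and deletes Apc there. The mice had received 1 intraperitoneal injection of tamoxifen at 25 mg/kg at an age of 8 to 10 weeks according to the labels, and no library of this comparison came from an untreated mouse. The strain label is C57Bl6/Sv129 in the first monocyte library and ends in a different number in each other library. Tumor monocytes had been sorted as CD45+ EpCAM- CD11b+ MHCII- Ly6C-high Ly6G- cells, and stromal cells as cells negative for both CD45 and EpCAM, a gate that holds fibroblasts, endothelial cells, pericytes and glia together. The labels do not say whether the 4 libraries of a group came from separate mice, so the p-values below measure the spread between these libraries, which may be technical. Monocyte replicate 1 and stromal replicate 1 share a number in their titles, and no other monocyte and stromal library do. In such bulk RNA, fewer cells of a type and less RNA per cell cannot be told apart.

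Secreted factors act on cells that carry the matching receptor, and antagonists and binding proteins bind or alter the factor or block its receptor. Monocytes recruited to inflamed tissue are known for interleukin-1 and for chemokines that draw further myeloid cells, whereas fibroblasts and endothelial cells are known for stem cell niche factors, matrix-bound growth factor reservoirs and vascular receptors. Frizzled and LGR receptors belong to the Wnt pathway, which is constantly active in colon tumors that have lost Apc.

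Counts on genes ran from 12075920 to 20228528 in the monocyte libraries and from 12814976 to 22860992 in the stromal libraries. The monocyte marker list (11 genes with Ccr2, Lyz2 and F13a1 among them) summed to 1221 to 1502 RPKM (a read density that allows for transcript length and library size) in monocytes and 57.9 to 128 RPKM in stromal cells, and 10 of its 11 genes were called higher in monocytes. The gene that was not called was Ly6c2, which encodes the LY6C of the gate, at 2.28 to 5.72 RPKM in monocytes and up to 3.78 RPKM in stromal cells. Ly6g was at 0.615 RPKM or less in monocytes, while H2-Aa, an MHC class II gene, was at 11.1 to 32.4 RPKM although MHCII had been gated out. Of the 9 genes that encode markers of the sort gates, 1 was called higher in monocytes and 0 in stromal cells. A macrophage list of 8 genes summed to 21.0 to 59.6 RPKM in monocytes and 7.47 to 18.1 RPKM in stromal cells. Of its 7 genes tested, 4 were called higher in monocytes. The stromal libraries were not alike. Stromal replicates 1 and 2 carried an epithelial list of 12 genes such as Krt8, Cdh1 and Muc2 at a median of 93.3% and 45.1% of the level in sorted tumor epithelial cells, against 19.9% and 12.7% in replicates 3 and 4, although EpCAM had been gated out. Mitochondrial genes took 55.4% and 62.9% of the counts in replicates 1 and 2 and 27.4% and 24.8% in replicates 3 and 4. The endothelial list of 8 genes summed to 4.67 and 3.94 RPKM in replicates 1 and 2 and to 121 and 126 RPKM in replicates 3 and 4. Neutrophil and red blood cell markers were highest in replicates 3 and 4, with S100a9 at 864 and 316 RPKM, Hbb-bs at 1282 and 416 RPKM, and Ptprc, which encodes CD45, at 7.29 and 10.8 RPKM. The monocyte libraries reached 0.826% to 20.8% of the tumor epithelial level on the epithelial list, with replicate 2 the highest, and their fibroblast list of 11 genes summed to 0.143 to 2.55 RPKM against 7.31 to 27.9 RPKM in stromal cells. The part of these other cell types in the results was not tested, and the counts of members and pairs are given with and without stromal replicates 1 and 2. Without these replicates, genes low in them move toward the stromal side by construction. That fit holds stromal replicates 3 and 4 alone, so its values are no further support for such genes.

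Of the 16840 genes with enough counts to test, 1277 (7.58%) were called higher in monocytes and 2001 (11.9%) higher in stromal cells by edgeR's quasi-likelihood test. A gene was called when its Benjamini-Hochberg adjusted p was below 0.05 and its log2 fold change exceeded 1.5 in either direction. Fold changes are given as monocytes minus stromal cells, so positive values are higher in monocytes, and SE is the standard error of the log2 fold change. Of the 209 secreted factors, 132 passed the filter on low counts, and 28 of these were called higher in monocytes and 30 higher in stromal cells. Of the 187 receptors, 153 passed and 32 were called higher in monocytes and 42 in stromal cells. The antagonists were mostly on the stromal side, with 24 of 40 passing the filter, 17 higher in stromal cells and 1 higher in monocytes. The median log2 fold change was -0.66 over the secreted factors tested, -0.55 over the receptors and -4.11 over the antagonists (-3.82 with the antagonist that was at 3 counts or fewer in every monocyte library set at its bound), against -0.04 over all genes. Members seen in 1 cell type alone pass the filter through that cell type, so these shares describe the genes that passed and not the lists. Among genes with at least 10 counts in every library the medians of the secreted factors and receptors had the opposite sign, 1.37 and 0.59, and that of the antagonists was -2.95. In that set 23 of 51 secreted factors were called higher in monocytes and 8 in stromal cells, and 25 and 15 of 93 receptors, while 765 (7.41%) of 10327 genes were higher in monocytes and 878 (8.50%) in stromal cells. By level alone, 35 secreted factors were over 1 RPKM in every monocyte library and 28 in every stromal library, and 18 of them were over that level in all 8, so the factors detected in the cell types overlapped.

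**Figure D1:**
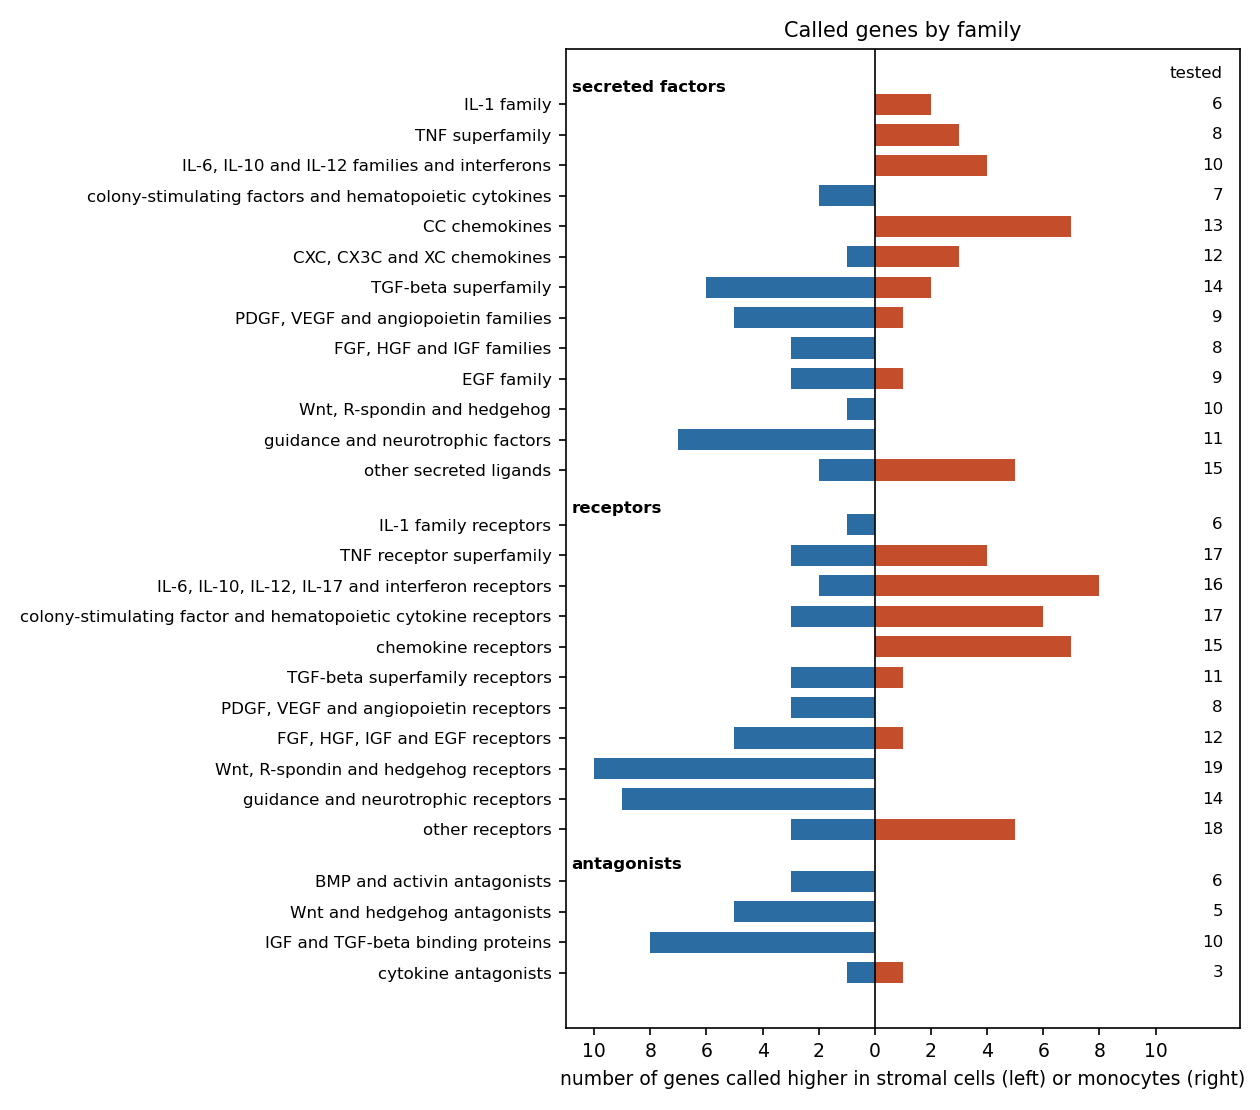
Number of genes called higher in stromal cells (blue, left) or in monocytes (red, right) in each family of secreted factors, receptors and antagonists, with the number of genes tested at the right edge. Cytokine and chemokine families extend to the right, apart from colony-stimulating factors and hematopoietic cytokines, with 7 of 13 CC chemokines, and guidance factors, Wnt receptors and binding proteins extend to the left, with 10 of 19 Wnt, R-spondin and hedgehog receptors.

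By family, the called cytokines and chemokines were higher in monocytes, apart from Cxcl12, Kitl and Thpo. Of the CC chemokines, 7 of 13 tested were higher in monocytes and 0 in stromal cells. The IL-1 family gave 2 of 6, the TNF superfamily 3 of 8 and the families of IL-6, IL-10 and IL-12 with interferons 4 of 10, all of the called members on the monocyte side. Guidance and neurotrophic factors, which steer axons and vessels, gave 7 of 11 on the stromal side and 0 on the monocyte side. The growth factor families were divided. The TGF-beta superfamily list had 2 members higher in monocytes and 6 higher in stromal cells among 14 tested. The 6 include Bmp1, which encodes a metalloproteinase and not a ligand of this superfamily. The PDGF, VEGF and angiopoietin families had 1 and 5 among 9.

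By mean RPKM, Il1b was the highest of the secreted factors in monocytes. This gene, which encodes interleukin-1 beta (ENSMUSG00000027398, chromosome 2 from 129364570 to 129371139 of mm10), was at 339, 419, 367 and 443 RPKM in monocytes and at 10.8, 3.53, 65.1 and 56.3 RPKM in stromal cells. The groups did not overlap, although the stromal libraries spread from 3.53 to 65.1 RPKM. Its log2 fold change was 3.81 (SE 0.80, edgeR adjusted p = 0.0098), and the mean in sorted tumor neutrophils was higher than in monocytes, at 705 RPKM. Il1a, which encodes interleukin-1 alpha, was at 103 to 139 RPKM in monocytes and 0.513 to 7.15 RPKM in stromal cells, a log2 fold change of 5.20 (SE 0.70, edgeR adjusted p = 0.00236). Il1b overlaps the antisense gene Il1bos and Il1a an antisense gene model, and whether strand was used in counting is not given in the sources used here. Oncostatin M, an IL-6 family cytokine encoded by Osm, was at 11.9, 29.8, 19.7 and 24.3 RPKM in monocytes and at 0.231, 0.0874, 1.54 and 1.54 RPKM in stromal cells, a log2 fold change of 4.92 (SE 0.87, edgeR adjusted p = 0.00508). No monocyte library came near the stromal range, and stromal replicates 1 and 2 were the lowest. As for Il1b, the mean of Osm in tumor neutrophils was higher than in monocytes.

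Among chemokines, the myeloid attractant Ccl9 (ENSMUSG00000019122, chromosome 11 from 83572919 to 83578636) was at 32.1, 55.2, 71.9 and 52.9 RPKM in monocytes and at 0.719, 0.617, 0.852 and 1.61 RPKM in stromal cells. The lowest monocyte library was far above the highest stromal library, and the log2 fold change was 6.05 (SE 0.45, edgeR adjusted p = 5.45e-04). Ccl24, an eosinophil attractant, was at 0.308, 2.17, 1.61 and 11 RPKM in monocytes and had 3 counts or fewer in every stromal library. Set against 3 counts per stromal library it was at least 97.1-fold higher in monocytes (edgeR adjusted p = 0.00371), and at least 36.4-fold higher without monocyte replicate 4. The neutrophil attractant Cxcl3 was at 9.68, 26.4, 22.9 and 25.1 RPKM in monocytes and 0.433 to 3.77 RPKM in stromal cells (log2 fold change 3.61, SE 0.65, edgeR adjusted p = 0.00548). The related Cxcl2, named with its values known, was at 82.5 to 262 RPKM against 4.28 to 45.4 RPKM (log2 fold change 3.00, SE 0.69, edgeR adjusted p = 0.0141). Tumor neutrophils exceeded monocytes for both, at means of 81.2 and 658 RPKM.

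The growth factors higher in monocytes were Inhba, Nrg1, Vegfa and Tgfb1. Inhba, the activin A subunit (ENSMUSG00000041324, chromosome 13 from 16011851 to 16031621), was at 124, 64.7, 80.6 and 160 RPKM in monocytes and at 2.04, 2.06, 3.53 and 6.22 RPKM in stromal cells. Monocytes thus exceeded the highest stromal library in every sample, and the log2 fold change was 5.20 (SE 0.50, edgeR adjusted p = 6.98e-04). Nrg1, an EGF family ligand of ERBB receptors, was at 23.0, 15.4, 20.8 and 18.4 RPKM in monocytes and at 0.126, 0.213, 0.977 and 1.14 RPKM in stromal cells, a log2 fold change of 5.27 (SE 0.72, edgeR adjusted p = 0.00248). Vegfa, the main vascular growth factor (ENSMUSG00000023951, chromosome 17 from 46016993 to 46032369), was at 24.6, 29.0, 56.4 and 47.8 RPKM in monocytes and at 6.33, 6.07, 4.34 and 3.77 RPKM in stromal cells, a log2 fold change of 3.17 (SE 0.39, edgeR adjusted p = 0.00165). For these 3 genes the tumor neutrophil mean stayed below the monocyte mean, at 9.66, 0.662 and 7.72 RPKM. Tgfb1 was at 13 to 27.5 RPKM against 0.665 to 3.61 RPKM (log2 fold change 3.39, SE 0.57, edgeR adjusted p = 0.00438). The 19 secreted factors called higher in monocytes but not named by the rule had log2 fold changes from 1.6 to 4.83. Cxcl2 and Tgfb1 are among these, with Ccl2, Ccl3, Thbs1, Il10, Tnf, Lgals3 and C3.

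**Figure D2:**
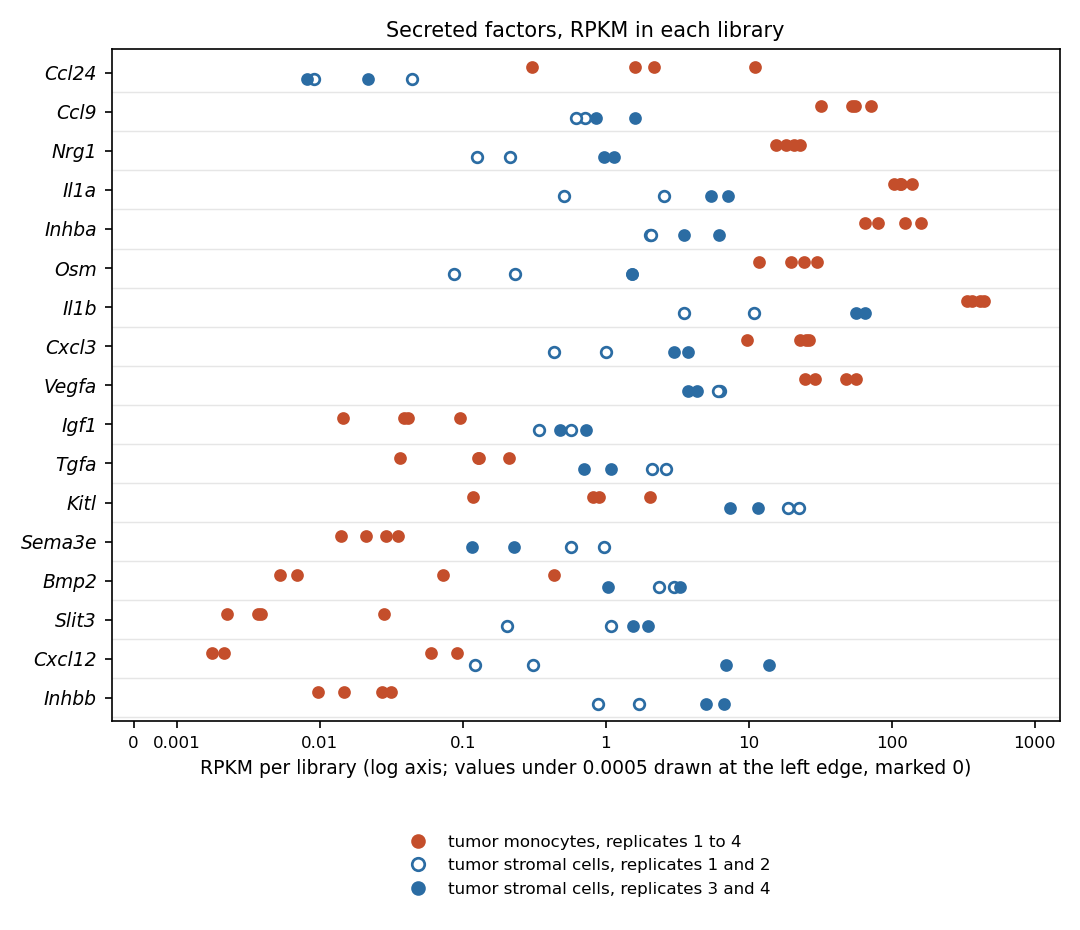
RPKM on a log axis in each library for the secreted factors named by the rule, with monocytes in red, stromal replicates 1 and 2 as open blue circles and stromal replicates 3 and 4 as filled blue circles. The genes from Ccl24 to Vegfa have every monocyte library above every stromal library and those from Igf1 to Inhbb the reverse, and for Cxcl12 the open circles lie near the monocytes.

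The promoters of 3 of these monocyte factors are shown because they hold a match to the consensus site of NF-kB, a transcription factor known for its role in cytokine and chemokine genes. They are windows of RefSeq on build GRCm38.p6, from 250 bases before to 50 bases after the transcription start, written 5′ to 3′ on the strand of the gene, with capitals marking the match.
Ccl9, chr11:83578587-83578886, minus strand: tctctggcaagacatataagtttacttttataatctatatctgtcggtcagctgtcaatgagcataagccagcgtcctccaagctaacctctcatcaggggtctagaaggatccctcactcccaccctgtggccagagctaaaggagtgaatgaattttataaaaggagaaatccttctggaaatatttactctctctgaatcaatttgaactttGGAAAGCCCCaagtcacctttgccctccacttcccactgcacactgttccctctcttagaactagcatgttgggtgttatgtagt
Cxcl3, chr5:90785851-90786150, plus strand: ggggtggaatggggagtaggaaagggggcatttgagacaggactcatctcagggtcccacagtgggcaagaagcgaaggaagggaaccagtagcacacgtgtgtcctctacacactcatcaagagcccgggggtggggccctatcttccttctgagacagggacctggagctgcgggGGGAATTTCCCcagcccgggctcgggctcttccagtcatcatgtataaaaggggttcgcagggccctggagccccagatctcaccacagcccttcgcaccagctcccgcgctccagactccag
Vegfa, chr17:46032328-46032627, minus strand: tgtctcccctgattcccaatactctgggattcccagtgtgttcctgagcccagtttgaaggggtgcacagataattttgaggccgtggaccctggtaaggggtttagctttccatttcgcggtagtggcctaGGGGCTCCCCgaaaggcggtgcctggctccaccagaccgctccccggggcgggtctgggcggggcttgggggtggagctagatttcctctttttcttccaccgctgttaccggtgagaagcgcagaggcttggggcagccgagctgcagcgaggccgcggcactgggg
The NF-kB match begins 35 bases before the start in Ccl9, 118 bases before it in Vegfa, and 73 and 72 bases before it in Cxcl3, where 2 matches overlap each other. The motif was searched by its 10-letter consensus, and it and the other motifs below were searched on both strands. Of the 28 secreted factors called higher in monocytes 18 had a window, and 8 of these (44.4%) held the motif, which was in 9.55% of the 27025 genes with a window. Of the 24 matched factors called higher in stromal cells 5 (20.8%) held it, and of the 49 matched factors that were not called 8 (16.3%). An AP-1 site, TGANTCA, was in 5 of the 18 monocyte windows and in 1 of the 24 stromal windows, against 8.97% of all genes. The GC box, GGGCGG, was more common on the stromal side, in 15 of 24 windows against 7 of 18, with 38.2% over all genes, and the TATA box TATAAA was in 8 of 18 monocyte windows and 5 of 24 stromal windows, with 15.7% over all genes. In the windows shown, Ccl9 also held an AP-1 site 53 bases before the start. It held TATA box matches on the opposite strand at 224 and 94 bases, written TTTATA, and TATAAA itself at 92 bases. Cxcl3 held a TATA box at 30 bases and Vegfa GC boxes at 72 and 62 bases, and none of these overlapped the NF-kB match. A match in a window describes its letters alone.

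Among stromal factors, Cxcl12, the ligand of CXCR4 and a product of fibroblasts and vessels (ENSMUSG00000061353, chromosome 6 from 117168535 to 117181367), was at 13.9 and 6.97 RPKM in stromal replicates 3 and 4 and at 0.122 and 0.313 RPKM in replicates 1 and 2. In monocytes it was at 0.00177, 0.0605, 0.0908 and 0.00216 RPKM. The lowest stromal library was therefore close to the highest monocyte library. The log2 fold change was -6.76 (SE 1.78, edgeR adjusted p = 0.0247), and the adjusted p was 0.0575, 0.0539 and 0.0542 without monocyte replicate 1, 2 or 4 and 0.0527 without stromal replicate 3, and by limma-voom it was 0.131. Without stromal replicates 1 and 2, the lowest stromal libraries for this gene, the edgeR adjusted p was 0.00494, with a log2 fold change of -7.70. Inhbb, the activin B subunit, was at 1.71, 0.884, 5.06 and 6.74 RPKM in stromal cells and 0.00974 to 0.0317 RPKM in monocytes (log2 fold change -7.10, SE 0.82, edgeR adjusted p = 0.00127). The activin subunits were thus on opposite sides, Inhba higher in monocytes and Inhbb in stromal cells. Slit3, a guidance ligand of ROBO receptors, was at 0.206, 1.10, 1.98 and 1.57 RPKM in stromal cells and 0.00223 to 0.0281 RPKM in monocytes (log2 fold change -6.67, SE 1.00, edgeR adjusted p = 0.00303).

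Further stromal factors were as high in the libraries that carried epithelial transcripts. Kitl, the ligand of KIT (ENSMUSG00000019966), was at 22.5, 19.0, 11.7 and 7.43 RPKM in stromal cells and 0.119, 0.892, 2.03 and 0.811 RPKM in monocytes, a log2 fold change of -3.74 (SE 0.78, edgeR adjusted p = 0.00995). Its mean in sorted tumor epithelial cells was 20.9 RPKM, above the stromal mean of 15.1 RPKM. Tgfa, an EGF receptor ligand, was at 2.63, 2.10, 1.09 and 0.700 RPKM in stromal cells and 3.07 RPKM in epithelial cells, and monocytes were at 0.0362 to 0.211 RPKM (log2 fold change -3.51, SE 0.63, edgeR adjusted p = 0.00537). In both genes stromal replicates 1 and 2 were the highest libraries. Sema3e, a guidance factor that acts through plexin D1, followed the same order at 0.977, 0.576, 0.228 and 0.117 RPKM in stromal cells (log2 fold change -4.03, SE 0.76, edgeR adjusted p = 0.00649), and without stromal replicates 1 and 2 its adjusted p was 0.0519. Of the 30 secreted factors called higher in stromal cells, 13 had a higher mean still in tumor epithelial cells, and 10 had both replicates 1 and 2 above both replicates 3 and 4. Such counts, here and below, were taken for list members alone. Without the share over all called genes they cannot be read as particular to the lists.

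Bmp2 and Igf1 were not ordered in that way. Bmp2, a bone morphogenetic protein that opposes stem cell fate in the crypt, was at 2.35, 3.00, 3.31 and 1.03 RPKM in stromal cells and 0.00531 to 0.439 RPKM in monocytes (log2 fold change -4.07, SE 1.20, edgeR adjusted p = 0.0374). The adjusted p of Bmp2 passed the threshold with all libraries and without monocyte replicate 4 or stromal replicate 4, and otherwise was 0.0624, 0.0824 and 0.0519 without monocyte replicate 1, 2 or 3 and 0.0616, 0.0727 and 0.0705 without stromal replicate 1, 2 or 3. Without both stromal replicates 1 and 2 its log2 fold change was -3.77 (edgeR adjusted p = 0.112). Igf1, insulin-like growth factor 1, was low in all libraries, at 0.340, 0.576, 0.728 and 0.480 RPKM in stromal cells and 0.0147 to 0.0961 RPKM in monocytes, yet without overlap (log2 fold change -3.30, SE 0.58, edgeR adjusted p = 0.00508). An antisense gene overlaps Igf1. Of the 22 stromal secreted factors not described singly, the log2 fold changes ran from -8.05 to -1.96, where 5 factors had 3 counts or fewer in every monocyte library and their fitted values are no bounds.

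The receptors higher in monocytes were led by those that guide and feed the mononuclear phagocyte lineage. Ccr2, the receptor of CCL2 (ENSMUSG00000049103, chromosome 9 from 124101950 to 124113557), was at 23.9, 35.2, 49.5 and 31.4 RPKM in monocytes and at 0.361, 0.293, 0.781 and 1.42 RPKM in stromal cells. The gap was more than the range within either group, with a log2 fold change of 5.89 (SE 0.59, edgeR adjusted p = 8.06e-04). Csf1r, the receptor of macrophage colony-stimulating factor, was at 57.0 to 94.1 RPKM against 1.47 to 4.99 RPKM (log2 fold change 4.79, SE 0.41, edgeR adjusted p = 5.45e-04). It overlaps Hmgxb3 on the opposite strand. Tumor neutrophils were at means of 0.181 RPKM for Ccr2 and 10.5 RPKM for Csf1r, far below monocytes for both. Ccr2 and Csf1r are also members of the monocyte marker list.

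Complement, chemerin and matrix receptors were also higher in monocytes. C3ar1, the receptor of the complement fragment C3a, was at 11.3, 17.2, 28.4 and 25.7 RPKM in monocytes and at 1.08, 0.967, 0.653 and 1.07 RPKM in stromal cells (log2 fold change 4.67, SE 0.40, edgeR adjusted p = 5.45e-04). Cmklr1, the chemerin receptor, was at 15.6 to 22.1 RPKM against 0.299 to 2.40 RPKM (log2 fold change 4.22, SE 0.69, edgeR adjusted p = 0.00387). Ccrl2, an atypical chemerin receptor, was at 45.9 to 80.7 RPKM against 0.857 to 12.2 RPKM (log2 fold change 3.64, SE 0.75, edgeR adjusted p = 0.00954), and it was at 103 RPKM in tumor neutrophils. Cx3cr1, the fractalkine receptor and a marker of patrolling and tissue phagocytes, was low in comparison, at 0.896, 2.00, 5.42 and 3.78 RPKM in monocytes and 0.151 to 0.511 RPKM in stromal cells (log2 fold change 3.51, SE 0.67, edgeR adjusted p = 0.00715), and its annotated span holds several other genes. Cd44, the hyaluronan and osteopontin receptor, was the receptor with the highest mean in monocytes, at 165, 147, 264 and 208 RPKM against 15.2 to 26.6 RPKM in stromal cells (log2 fold change 3.50, SE 0.34, edgeR adjusted p = 6.98e-04).

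In families, 7 of 15 chemokine receptors tested were called higher in monocytes and 0 in stromal cells. The receptors of the families of IL-6, IL-10, IL-12, IL-17 and interferons gave 8 of 16 on the monocyte side and 2 on the stromal side, Osmr and Il17rc. The receptors of colony-stimulating factors and hematopoietic cytokines gave 6 and 3 of 17. Of the 23 further receptors higher in monocytes the log2 fold changes ran from 1.53 to 3.92, and among them Met, the receptor of hepatocyte growth factor usually known from epithelia, was at 12.2, 10.5, 14.1 and 14.0 RPKM in monocytes against 1.72 to 2.89 RPKM in stromal cells and a mean of 3.20 RPKM in tumor epithelial cells. Its log2 fold change was 2.74 (SE 0.27, edgeR adjusted p = 6.98e-04). Of the 32 receptors called higher in monocytes, 9 had a higher mean still in tumor neutrophils, as had 9 of the 28 secreted factors. The share over all genes called higher in monocytes was not taken.

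**Figure D3:**
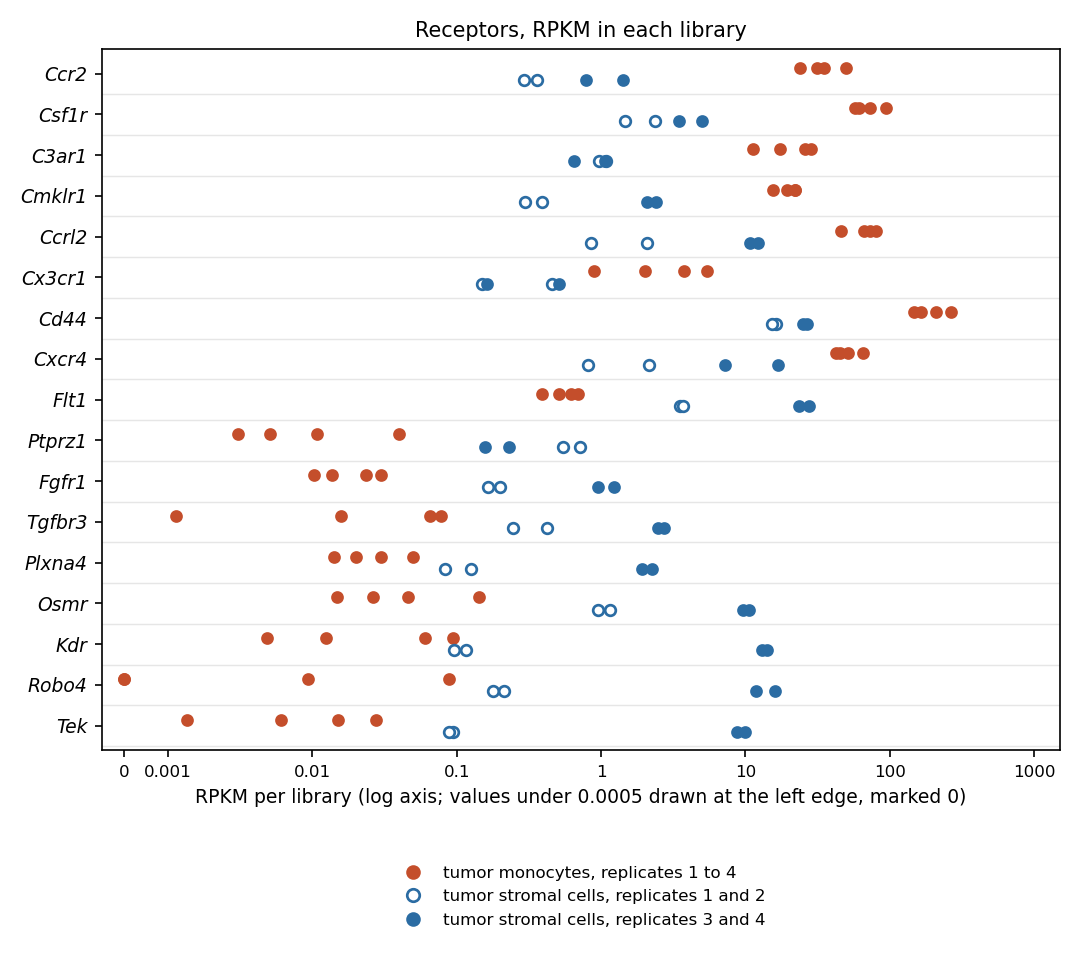
RPKM on a log axis in each library for the receptors described in the text by the naming rule, drawn as for the secreted factors. Chemokine and colony-stimulating factor receptors lie to the right in monocytes, and for Tek, Robo4 and Kdr the open circles of stromal replicates 1 and 2 lie under 1 RPKM while replicates 3 and 4 lie between 8.69 and 16 RPKM.

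The stromal receptors with the largest changes were endothelial. Tek, the angiopoietin receptor (ENSMUSG00000006386, chromosome 4 from 94739289 to 94874976), was at 0.0945, 0.0881, 8.69 and 9.90 RPKM in the stromal libraries and at 0.00136 to 0.0274 RPKM in monocytes. Kdr, the main VEGF-A receptor of endothelium, was at 0.0952, 0.116, 14.1 and 13.1 RPKM in stromal cells and at 0.0606, 0.0944, 0.00488 and 0.0125 RPKM in monocytes. Robo4, an endothelial guidance receptor, was at 0.177, 0.213, 16 and 11.8 RPKM in stromal cells and at 0.00934, 0, 0.0884 and 0 RPKM in monocytes. In all of these genes the separation of the groups was narrow in stromal replicates 1 and 2 and wide in replicates 3 and 4. The same held for the endothelial list, of which Kdr is a member. The log2 fold changes were -8.28 for Tek (SE 1.85, edgeR adjusted p = 0.0126), -7.80 for Robo4 (SE 2.02, edgeR adjusted p = 0.023) and -7.05 for Kdr (SE 1.81, edgeR adjusted p = 0.0225). Without stromal replicates 1 and 2 they were -9.19, -8.80 and -8.00, with edgeR adjusted p of 5.66e-04, 0.00438 and 0.00144. These replicates were the low stromal libraries for all of these genes, so the larger changes follow from leaving them out. On all 8 libraries limma-voom gave adjusted p of 0.126 for Tek, 0.0968 for Robo4 and 0.233 for Kdr. The adjusted p of Robo4 was 0.0624 without monocyte replicate 1 and 0.0551 without replicate 4, and that of Kdr was 0.0545, 0.0528 and 0.0590 without monocyte replicate 1, 3 or 4.

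Other stromal receptors belong to mesenchymal cells or to several types. Osmr, the oncostatin M receptor (ENSMUSG00000022146, chromosome 15 from 6813577 to 6874969), was at 0.957, 1.15, 10.5 and 9.58 RPKM in stromal cells and 0.0149 to 0.142 RPKM in monocytes, a log2 fold change of -6.25 (SE 1.14, edgeR adjusted p = 0.0058). All stromal libraries were several-fold above the highest monocyte library. Flt1, a VEGF receptor and decoy, was at 3.54, 3.69, 27.7 and 23.7 RPKM in stromal cells and 0.390 to 0.697 RPKM in monocytes (log2 fold change -4.43, SE 0.74, edgeR adjusted p = 0.00425). Fgfr1, an FGF receptor of mesenchyme, was at 0.164, 0.201, 0.947 and 1.22 RPKM against 0.0102 to 0.0300 RPKM (log2 fold change -4.72, SE 0.81, edgeR adjusted p = 0.00466). Tgfbr3, the TGF-beta co-receptor betaglycan, had a log2 fold change of -4.96 (SE 1.19, edgeR adjusted p = 0.0169), and Plxna4, a semaphorin receptor, of -4.97 (SE 1.12, edgeR adjusted p = 0.013, limma-voom adjusted p = 0.104). Both were at 0.422 RPKM or less in stromal replicates 1 and 2 and between 1.91 and 2.72 RPKM in replicates 3 and 4. Plxna4 and Fgfr1 overlap antisense genes.

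Wnt, R-spondin and hedgehog receptors were called on the stromal side alone, 10 of 19 tested, and Lgr5 was among them. Lgr5, the stem cell R-spondin receptor, was at 2.75 and 2.56 RPKM in stromal replicates 1 and 2, at 0.406 and 0.460 RPKM in replicates 3 and 4, and at a mean of 3.01 RPKM in tumor epithelial cells. Its log2 fold change against monocytes was -4.04 (SE 1.05, edgeR adjusted p = 0.023), and the adjusted p was 0.0570 without monocyte replicate 1. Without stromal replicates 1 and 2 the log2 fold change was -2.06 with an adjusted p of 0.209. Ptprz1, a pleiotrophin receptor of glia and other cells, was likewise at 0.717 and 0.542 RPKM in replicates 1 and 2 and at 0.232 and 0.158 RPKM in replicates 3 and 4, with an epithelial mean of 0.604 RPKM (log2 fold change -4.68, SE 0.91, edgeR adjusted p = 0.0076). Of the 42 receptors called higher in stromal cells, 18 had a higher mean in tumor epithelial cells, and 17 had both replicates 1 and 2 above both replicates 3 and 4. The share over all genes called higher in stromal cells was not taken. The guidance and neurotrophic receptors gave 9 of 14 on the stromal side and 0 on the monocyte side.

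Antagonists divided along the same border. Il1rn, the interleukin-1 receptor antagonist, was the antagonist called higher in monocytes, at 147, 145, 114 and 207 RPKM against 4.07, 1.82, 18.7 and 16.8 RPKM in stromal cells (log2 fold change 4.16, SE 0.70, edgeR adjusted p = 0.0043). It was therefore high in the same libraries as Il1a and Il1b, and tumor neutrophils were at a mean of 173 RPKM. The Wnt and hedgehog antagonists tested were called higher in stromal cells in 5 of 5 cases, the IGF and TGF-beta binding proteins in 8 of 10 and the BMP and activin antagonists in 3 of 6. When stromal replicates 1 and 2 were left out, 11 of the 17 stromal antagonists were called again among 16 of 29 tested, and Dkk3, Notum, Wif1, Igfbp4, Ltbp1 and Tnfrsf11b were not. Of the Wnt antagonists this left Dkk2 and Sfrp1. The mean in tumor epithelial cells was higher than in stromal cells for 7 of the 17, namely Wif1, Dkk2, Dkk3, Notum, Igfbp4, Ltbp1 and Tnfrsf11b.

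Igfbp7, an IGF-binding protein abundant in tumor vessels (ENSMUSG00000036256, chromosome 5 from 77349240 to 77408041), was at 3.35, 7.84, 247 and 225 RPKM in the stromal libraries and at 0.166 to 0.878 RPKM in monocytes (log2 fold change -7.98, SE 1.53, edgeR adjusted p = 0.00701). Its span overlaps Polr2b on the opposite strand. Igfbp3 was at 1.24, 0.996, 131 and 72.6 RPKM in stromal cells and at 0.0270 to 0.716 RPKM in monocytes (log2 fold change -7.28, SE 1.88, edgeR adjusted p = 0.0226). Like the endothelial receptors, both were far higher in stromal replicates 3 and 4. Igfbp5 was at 0.702, 2.93, 11.6 and 11.9 RPKM in stromal cells (log2 fold change -4.96, SE 1.26, edgeR adjusted p = 0.0216). The adjusted p of Igfbp3 was 0.0529, 0.0552 and 0.0588 without monocyte replicate 1, 2 or 4, and that of Igfbp5 was 0.0603 and 0.0524 without monocyte replicate 1 or 2. Stromal replicates 1 and 2 were the lowest stromal libraries for all of these genes. Without them the edgeR adjusted p values were 2.81e-04 for Igfbp7, 0.00347 for Igfbp3 and 0.0121 for Igfbp5. By limma-voom on all libraries the adjusted p values were 0.111 for Igfbp7 and 0.174 for Igfbp3.

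Small proteoglycans and latent TGF-beta binding proteins hold growth factors in the matrix. Dcn, which encodes decorin, was at 2.74, 14.4, 6.64 and 9.40 RPKM in stromal cells and at 0.0221, 0.803, 0.00884 and 0.0680 RPKM in monocytes, with a mean of 0.143 RPKM in tumor epithelial cells. Bgn, which encodes biglycan, was at 1.03, 4.73, 9.40 and 18.2 RPKM in stromal cells and 0.0268 to 0.357 RPKM in monocytes. Stromal replicate 2 was thus among the higher libraries for Dcn, while replicate 1 was the lowest for both. Their log2 fold changes were -5.12 (SE 1.29, edgeR adjusted p = 0.0203) and -5.18 (SE 1.01, edgeR adjusted p = 0.00765), and without monocyte replicate 4 the adjusted p of Dcn was 0.0525. Ltbp4, which tethers latent TGF-beta, was at 1.07, 1.19, 5.87 and 5.19 RPKM in stromal cells and 0.00169 to 0.0511 RPKM in monocytes (log2 fold change -7.06, SE 1.03, edgeR adjusted p = 0.00284). Fstl1, a follistatin-like protein that binds BMPs, was at 0.983, 1.69, 4.10 and 5.92 RPKM against 0.00183 to 0.0739 RPKM (log2 fold change -6.07, SE 0.90, edgeR adjusted p = 0.00295). Dkk2, a Wnt antagonist, ran the other way among stromal libraries, at 4.72, 2.35, 1.06 and 1.74 RPKM, with an epithelial mean of 3.81 RPKM (log2 fold change -4.83, SE 1.01, edgeR adjusted p = 0.00975). Grem1, a BMP antagonist of crypt fibroblasts, was low at 0.178, 0.821, 0.449 and 0.834 RPKM in stromal cells but at 0.00708 to 0.0663 RPKM in monocytes and 0.0266 RPKM in epithelial cells (log2 fold change -4.01, SE 0.87, edgeR adjusted p = 0.0112).

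**Figure D4:**
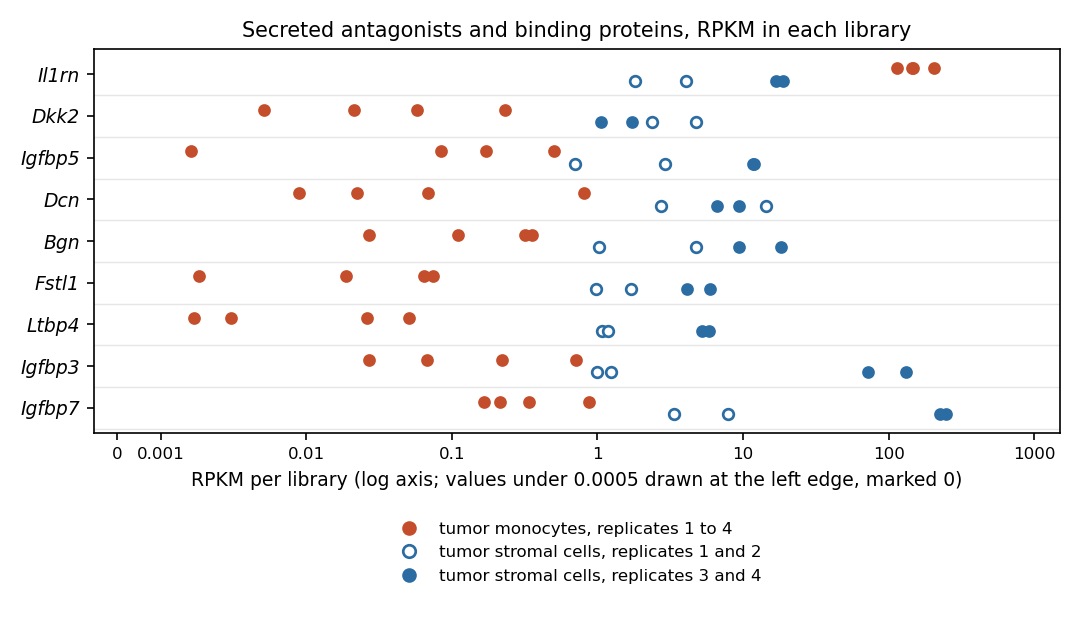
RPKM on a log axis in each library for the antagonists and binding proteins named by the rule, drawn as for the secreted factors. Il1rn lies above 100 RPKM in every monocyte library, and Igfbp7 and Igfbp3 lie above 50 RPKM in stromal replicates 3 and 4 and under 10 RPKM in replicates 1 and 2.

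To ask whether a factor and its receptor fell on the same side, 179 ligand-receptor pairs were looked up, and in 118 of them both genes had been tested. In 16 pairs both genes were called higher in monocytes, in 9 both higher in stromal cells, and in 6 they were called on opposite sides. The remaining pairs had at least 1 gene that was not called. The pairs within monocytes were mainly chemokine pairs, such as Ccl2 with Ccr2, Ccl3 with Ccr1, and Ccl9 with Ccr1, joined by Tgfb1 with Tgfbr1, C3 with C3ar1 and Il10 with its receptor chains. Ccl2 was at 12.8, 30.5, 57.8 and 20.6 RPKM in monocytes and 2.42 to 6.17 RPKM in stromal cells (log2 fold change 3.16, SE 0.53, edgeR adjusted p = 0.00438). Ccr1 was at 16.2 to 24.6 RPKM against 0.197 to 4.46 RPKM (log2 fold change 3.47, SE 0.86, edgeR adjusted p = 0.019). The pairs within stromal cells included Kitl with Kit, Bmp2 with Bmpr1a, Fgf1 with Fgfr1, and Slit3 with Robo1. In the fit without stromal replicates 1 and 2 the pairs within monocytes numbered 9, of which 8 were among the 16, and those within stromal cells 11, of which 3 were among the 9. The pairs of Tgfb1 with Tgfbr1 and of Il10 with its receptor chains were then lost (Tgfbr1 log2 fold change 1.40, Il10 edgeR adjusted p = 0.0601), as were Bmp2 with Bmpr1a and Slit3 with Robo1 (Robo1 log2 fold change -1.21, edgeR adjusted p = 0.402). Kit, the receptor of mast cells and pacemaker cells, was at 1.90, 1.76, 2.94 and 3.99 RPKM in stromal cells and 0.0228 to 0.250 RPKM in monocytes (log2 fold change -4.62, SE 0.73, edgeR adjusted p = 0.00364).

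**Figure D5:**
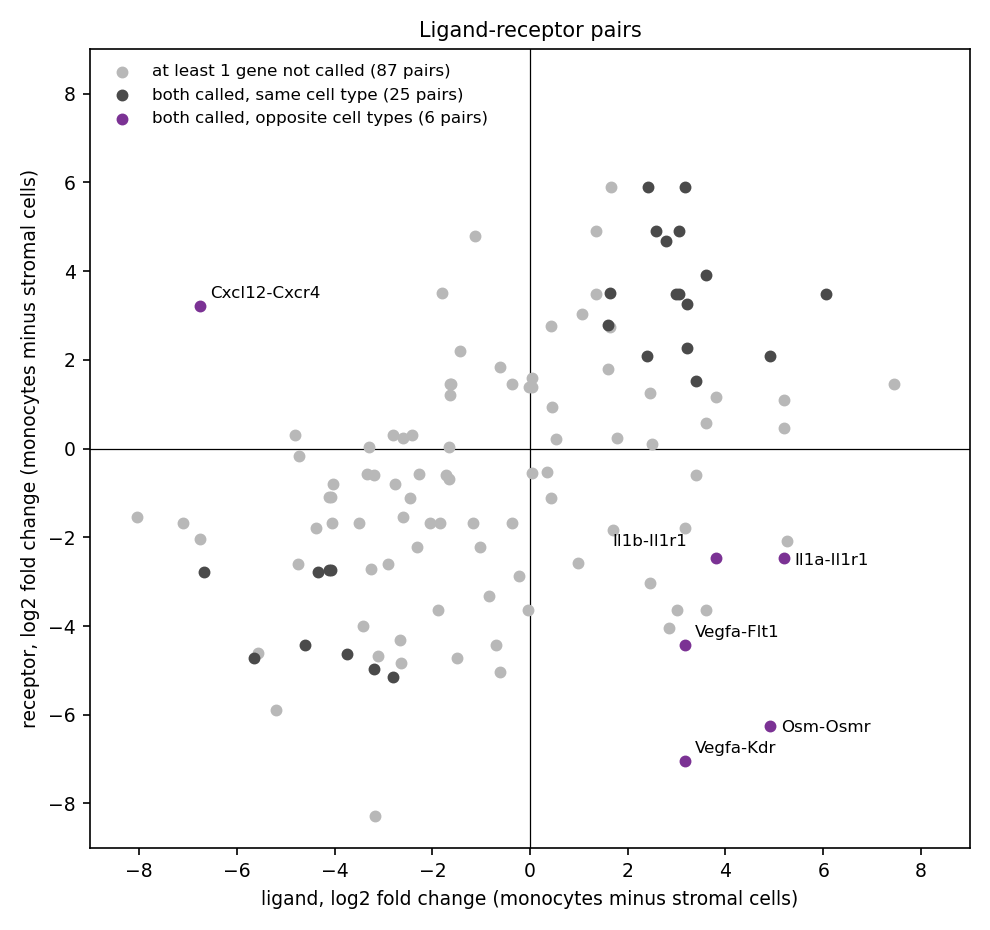
Log2 fold change of the ligand (horizontal axis) and of the receptor (vertical axis) for the 118 ligand-receptor pairs in which both genes were tested, as monocytes minus stromal cells. The 6 pairs called on opposite sides are labelled, with 5 in the lower right (ligand higher in monocytes, receptor higher in stromal cells) and 1 in the upper left.

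Of the 6 crossing pairs, 5 had the ligand higher in monocytes and the receptor higher in stromal cells. They were Il1a and Il1b with Il1r1, Osm with Osmr, and Vegfa with Kdr and Flt1, so they rest on 4 ligands and 4 receptors. Il1r1, the signalling interleukin-1 receptor, was at 1.10, 0.908, 5.58 and 7.53 RPKM in stromal cells and at 0.576, 1.03, 0.363 and 0.318 RPKM in monocytes. Stromal replicate 2 was below monocyte replicate 2, so the groups overlapped. The log2 fold change of Il1r1 was -2.48 (SE 0.71, edgeR adjusted p = 0.034), the adjusted p was 0.0773, 0.0743 and 0.0790 without monocyte replicate 1, 3 or 4 and 0.0700 and 0.0709 without stromal replicate 3 or 4, and by limma-voom it was 0.0811. Without stromal replicates 1 and 2, the lowest stromal libraries for Il1r1, the edgeR adjusted p was 0.00373. For Osm and Osmr the levels were reversed in every library, with the ligand at 11.9 RPKM or more and the receptor at 0.142 RPKM or less in each monocyte library. In the other direction the single crossing pair was Cxcl12 with Cxcr4. Cxcr4 was at 45.4, 42.1, 65.3 and 51.6 RPKM in monocytes and at 2.13, 0.814, 7.24 and 16.9 RPKM in stromal cells (log2 fold change 3.21, SE 0.80, edgeR adjusted p = 0.0195), and without stromal replicate 3 the adjusted p was 0.0539.

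Without stromal replicates 1 and 2, 138 pairs had both genes tested and the crossing pairs rose to 10 with the ligand in monocytes and 3 with the ligand in stromal cells, and the 6 named above were among them. The added pairs were Il23a with Il23r, Cxcl2 and Cxcl3 with Cxcr2, Vegfa with Nrp1 and Thbs1 with Cd36 in the first direction, and Il34 with Csf1r and Rarres2 with Cmklr1 in the second. Cxcr2 is the receptor of neutrophil-attracting chemokines. It was at 42.3 and 30.9 RPKM in stromal replicates 3 and 4 and at 1.43 and 0.559 RPKM in replicates 1 and 2. The neutrophil list, of which Cxcr2 is a member, was also highest in replicates 3 and 4. In tumor neutrophils Cxcr2 was at a mean of 302 RPKM. With all libraries its log2 fold change was -3.63 (SE 1.26, edgeR adjusted p = 0.0652), and the adjusted p was 0.0439 without stromal replicate 1 and 0.0297 without replicate 2. Nrp1, a co-receptor of VEGF, was at 15.3 and 10.5 RPKM in stromal replicates 3 and 4, at 0.432 and 0.472 RPKM in replicates 1 and 2 and at 1.48 to 1.67 RPKM in monocytes, and was not called (edgeR adjusted p = 0.215). Stromal replicates 1 and 2 were within the monocyte range for Cxcr2 and below it for Nrp1, while replicates 3 and 4 were above it for both. Nrp1 had a log2 fold change of -1.79 (standard error 0.99) with all libraries and -2.70 (edgeR adjusted p = 7.11e-04) without stromal replicates 1 and 2.

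For several abundant ligands of monocytes or receptors of monocytes the partner was not called. Csf1, the ligand of CSF1R, was at 3.42, 2.31, 3.45 and 4.96 RPKM in stromal cells and at 1.55, 0.752, 1.51 and 1.59 RPKM in monocytes without overlap, but its log2 fold change of -1.13 (SE 0.34, edgeR adjusted p = 0.0417) was under the threshold of 1.5. Hgf, the ligand of MET, was higher in monocytes in every library, at 0.552 to 0.744 RPKM against 0.0922 to 0.416 RPKM, and its log2 fold change was 1.64 (SE 0.54, edgeR adjusted p = 0.0545), and by limma-voom its adjusted p was 0.0183. Erbb3, a neuregulin receptor, was at 3.53, 3.18, 1.12 and 0.776 RPKM in stromal cells, 4.73 RPKM in tumor epithelial cells and 0.101 to 1.12 RPKM in monocytes (log2 fold change -2.09, SE 0.76, edgeR adjusted p = 0.0768), and it was -2.99 with an adjusted p of 0.0286 without monocyte replicate 4. Each of these 3 genes was named with its values known.

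Leaving out stromal replicates 1 and 2 exchanged part of the stromal genes called. In that fit 154 secreted factors and 169 receptors were tested, and of 18740 genes 1050 (5.60%) were called higher in monocytes and 1960 (10.5%) in stromal cells. Of the 28 secreted factors called higher in monocytes, 23 were called again among 25, and of the 32 receptors 27 were called again among 27. Of the 30 secreted factors called higher in stromal cells, 19 were called again among 38, and of the 42 receptors 27 among 52. The factors no longer called included Bmp2, Bmp4, Tgfb2, Pdgfa, Sema3b, Sema3c and Sema3e, and the receptors Lgr4, Lgr5, Erbb2 and Fgfr2. Those added included the angiopoietins Angpt1 and Angpt2, Vegfc and Pdgfb with the receptors Tie1, Flt4, Pdgfrb and Robo2, and also the lymphocyte products Ifng, Il22 and Fasl with the receptors Ccr4, Ccr6, Ccr7 and Il23r. The lymphocyte and plasma cell list of 11 genes moved with the latter, with Cd3e at 2.88 and 4.87 RPKM in stromal replicates 3 and 4 against 0.0446 and 0.0960 RPKM in replicates 1 and 2.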

How the data were processed

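RNA of sorted cells had been amplified, sequenced and mapped to mm10 by the authors, who deposited a table of estimated counts per gene (expected counts, 99.6% of the values above 0 not whole) and a table of RPKM values. Per the labels and the study's methods, strand, multimapping and annotation release are not given in the sources used here. The 8 libraries were taken by group label, and replicate numbers follow the labels or, for the second stromal library labelled 3, accession order, which made it replicate 4. Symbols matched 45143 of 45706 gene identifiers. Counts were rounded, filtered with filterByExpr, scaled by TMM and tested with edgeR 4.0.16 (R 4.3.3) by robust quasi-likelihood with a Benjamini-Hochberg threshold of 0.05 and a log2 threshold of 1.5. On simulated data this procedure called 12% and 16% of the genes set at log2 fold changes of -2 and 2. It called 74% of those set at -4 and at 4. A gene that was not called may therefore still differ. The study's methods name limma-voom, which was run as an alternative (limma 3.58.1), as were DESeq2 1.42.0, other scalings and filters, limma on log2 RPKM and single libraries left out.

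The members of the 3 lists and the ligand-receptor pairs were chosen with earlier results of these data known, and counts over them are descriptions. Named genes were, for each list and direction, the 8 called members with the largest absolute log2 fold change provided that the average log2 CPM in the edgeR fit reached 3 and that there was no overlap of RPKM between the groups, and both genes of any pair called in opposite directions that met the same conditions. A receptor that met this rule is not reported here. Il1r1, Cxcl2, Cxcr2, Thbs1, Ccl2, Ccl3, Tgfb1, Ccr1, Csf1, Nrp1, Erbb3, Kit, Bmpr1a, Lgr5, Grem1, Met and Hgf were named after their values were seen. Since strand use is unknown, reads of named genes whose span overlaps another annotated gene cannot be told apart from it. These are Nrg1, Il1a, Il1b, Inhba, Slit3, Sema3e, Tgfa, Igf1, Csf1r, Cmklr1, Cx3cr1, Cd44, Plxna4, Tgfbr3, Fgfr1, Igfbp7, Il1r1, Thbs1, Ccl2, Nrp1, Erbb3, Bmpr1a, Lgr5 and Hgf. Depth was 12075920 to 22860992 counts per library. Sorted tumor epithelial cells and tumor neutrophils, 4 libraries each, enter as means for comparison. Coordinates and overlaps come from the GENCODE annotation of mm10, and fold bounds set a group at 3 counts per library.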

Additional observations from a re-analysis of the deposited data

Results flagged for a closer look

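In 5 of 122 groups of 4 libraries examined, 1 library lay far from the other three by Dixon's criterion, which chance alone meets in about 1 of 20 groups. All 5 were monocyte libraries. Slit3 was at 0.0281 RPKM in monocyte replicate 2 and at 0.00223 to 0.0039 RPKM in the others, and Dcn was at 0.803 RPKM in the same library and at 0.00884 to 0.068 RPKM in the others. Csf1 was lower in monocyte replicate 2, at 0.752 RPKM against 1.51 to 1.59 RPKM. Robo4 was at 0.0884 RPKM in monocyte replicate 3 and at 0 to 0.00934 RPKM in the others. Bmp2 was at 0.439 RPKM in monocyte replicate 4 and at 0.00531 to 0.0731 RPKM in the others. Monocyte replicate 2 also had the highest level of the epithelial list among monocytes, 20.8% of that in tumor epithelial cells, and its part in these values was not tested.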

How the results depend on the processing

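With at least 10 counts required in every library, 765 genes were called higher in monocytes and 878 in stromal cells, with 8 secreted factors and 15 receptors on the stromal side and 0 pairs with a stromal ligand and a monocyte receptor, since genes near 0 in a group are then not tested. On log2(RPKM + 1) the calls were 644 and 377 genes, 7 stromal secreted factors and 10 stromal receptors, with 2 and 0 crossing pairs in the 2 directions. The fit over 16 libraries of the tumor cell types gave 46 stromal secreted factors. Crossing pairs with a monocyte ligand numbered 2 by limma-voom, 9 by DESeq2, 3 with the replicate number as a block and 10 without stromal replicates 1 and 2, and those with a stromal ligand numbered 2 without a filter, 2 on log2(RPKM + 0.1) and 3 without stromal replicates 1 and 2. With each library left out in turn they ranged from 2 to 7 and from 0 to 2, with 2 and 0 without monocyte replicate 1, 7 without stromal replicate 1 and 2 without monocyte replicate 3. The cause was not tested.

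Same-numbered libraries did not deviate together (correlations from -0.26 to 0.07). These numbers count libraries within a group, and only monocyte replicate 1 and stromal replicate 1 also share a title number (-0.26). With a single such pair, pairing by mouse cannot be decided. With the block, 1366 and 1665 genes were called, and Nrp1 reversed to 0.62 (edgeR adjusted p = 0.721). Of the 44 genes named by rule, 37 kept their call with the block, 37 with limma-voom, 44 with DESeq2, 41 on log2(RPKM + 0.1), 30 on log2(RPKM + 1), 42 without stromal replicates 1 and 2, and 38 to 44 with single libraries left out. The median of all genes (log2 scale) shifted by -0.23 without a filter, -0.21 on log2(RPKM + 0.1), -0.10 over 16 libraries and -0.11 without monocyte replicate 3 or 4. Depth and 4 libraries a group limit what can be called for members near 0 in both cell types.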
